A study of Homo sapiens with 18 samples.

Results

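The genes described here are PLAU, PLAUR, PLAT, SERPINE2, SERPINB2, SERPINB7 and SERPINA9, which are 2 plasminogen activators, the receptor of 1 of them and 4 serpins. They are 7 of the 28266 genes of the count table and were taken by symbol. They were measured in IMR90 ER:RAS cells, a line of human lung fibroblasts that carries a fusion of oncogenic RAS with the hormone-binding part of the oestrogen receptor. All 6 groups carry this fusion. Senescent cells were given 100 nM 4-hydroxytamoxifen (4OHT), which activates it, and control cells were given DMSO. After 7 days, cells of each state received DMSO, IMP1088 at 300 nM or DDD86481 at a dose of 1.5 µM for 3 days, and RNA was collected on day 10. Both compounds inhibit N-myristoyltransferases (NMTi), which attach myristate to proteins. There were 3 libraries in each group. The labels do not say whether they came from separate cultures, and the study's supplement calls its replicates independent experiments. The p-values measure the spread between these libraries.

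The members were selected on earlier results of these same libraries. SERPINA9 had been picked for its rise in senescent cells with DMSO, and SERPINB7 for its fall with either inhibitor in control cells. Their values in those contrasts, and in any contrast that shares the libraries concerned, are therefore given as a description with no test. Which values chose the other 5 members was not recorded, so their adjusted p-values describe the fit across all genes and are not independent support. All 7 members passed the filter on low counts, which kept 14341 genes, but SERPINA9 did so through its senescent libraries alone.

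Plasminogen is a circulating proenzyme that urokinase (uPA, encoded by PLAU) and tissue-type activator (tPA, encoded by PLAT) cleave to plasmin, a protease that dissolves fibrin and cuts matrix proteins. The urokinase receptor (uPAR, encoded by PLAUR) is anchored in the outer membrane by a lipid tail and holds urokinase at the cell surface. Serpins are inhibitors that trap their target protease in a covalent complex. Activators, receptor and inhibitors of this system are known parts of the secretory phenotype of senescent fibroblasts.

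The 7 genes lie on 6 chromosomes, with positions given here on GRCh37 from the GENCODE annotation. PLAU is at chr10:75668935-75677254 on the plus strand. PLAUR is at chr19:44150247-44174699 on the minus strand. SERPINE2 is at chr2:224839762-224904035 on the minus strand, and SERPINA9 at chr14:94929054-94946026 on the minus strand. SERPINB7, at chr18:61420169-61472610, and SERPINB2, at chr18:61538926-61571122, follow each other on the plus strand of 1 serpin cluster. Of the exonic bases of PLAU, 31% overlap C10orf55, a non-coding gene on the opposite strand, and C10orf55 itself had between 34 and 221 counts in a library. Of those of SERPINB2, 20% overlap a read-through gene on the same strand. The study's methods name a directional library kit and a first-strand setting for the alignment, whereas the strand setting of the counting was not given in the sources used here, so these overlaps leave a part of both counts uncertain.

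AP-1 is a dimer of FOS and JUN proteins that acts downstream of RAS signalling, and its letters were looked for in the promoters. RefSeq promoter windows of 300 bases, from 250 before to 50 after a start site, were at hand for 6 members (10 windows, each of which matched GRCh37 exactly and at 1 place). The letters TGANTCA, which read the same on both strands, were in 4 of these 10 windows and in 7.71% of all 35116 RefSeq windows. The windows with the letters belonged to PLAUR, SERPINB2 and SERPINB7. The windows of PLAU, SERPINE2 and SERPINA9 and the most upstream window of SERPINB7 held none. With DMSO, all 6 genes, with or without the letters, had a higher mean level in senescent than in control cells. Whether the letters bear on this was not tested. No promoter of PLAT was examined. TATAAA, searched on both strands and present in 11.5% of all windows, was in the windows of SERPINB2 (30 bases before the start) and of 1 start of SERPINB7 (33 and 127 bases before it). TGATGNAA, a letter pattern of ATF4 sites also searched on both strands and present in 3.62% of all windows, was in 0 of the 10. No matches shared a base. These are matches of letters, and binding was not measured. The 250 bases before the start of the 4 windows with TGANTCA are shown 5′ to 3′, with the matches in capitals, so that their number and place can be compared. The match lay 186 bases before the start in PLAUR (minus strand, chr19:44174322-44174571) and 102 bases before it in SERPINB2 (plus strand, chr18:61554689-61554938). SERPINB7 had 2 matches at its middle start (154 and 39 bases before it, plus strand, chr18:61442402-61442651) and 2 at its most downstream start (206 and 45 bases before it, plus strand, chr18:61444765-61445014).
PLAUR: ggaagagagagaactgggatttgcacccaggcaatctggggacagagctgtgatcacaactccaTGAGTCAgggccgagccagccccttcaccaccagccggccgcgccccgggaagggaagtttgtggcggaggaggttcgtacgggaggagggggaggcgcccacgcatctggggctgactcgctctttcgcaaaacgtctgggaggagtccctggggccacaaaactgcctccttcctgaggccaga
SERPINB2: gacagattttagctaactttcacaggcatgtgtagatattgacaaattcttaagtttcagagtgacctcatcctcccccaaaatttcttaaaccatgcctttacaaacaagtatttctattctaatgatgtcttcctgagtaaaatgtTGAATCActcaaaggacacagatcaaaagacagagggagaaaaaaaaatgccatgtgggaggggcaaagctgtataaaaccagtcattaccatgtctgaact
SERPINB7, middle start: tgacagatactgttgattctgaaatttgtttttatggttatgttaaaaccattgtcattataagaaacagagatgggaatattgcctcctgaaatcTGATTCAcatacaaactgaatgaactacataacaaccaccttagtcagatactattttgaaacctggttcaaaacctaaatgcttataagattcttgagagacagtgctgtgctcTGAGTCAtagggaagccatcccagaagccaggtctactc
SERPINB7, most downstream start: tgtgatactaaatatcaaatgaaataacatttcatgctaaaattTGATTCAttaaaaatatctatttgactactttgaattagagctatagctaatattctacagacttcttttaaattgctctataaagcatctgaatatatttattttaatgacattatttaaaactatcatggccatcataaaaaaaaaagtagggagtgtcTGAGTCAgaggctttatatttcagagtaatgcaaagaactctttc

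Library totals ran from 16143716 to 23189950 counts. Expression is given in CPM, which are counts scaled to a common library size by the TMM method, by library and as mean ± SD (n = 3). Differences are log2 fold changes ± SE, and a gene was called where the quasi-likelihood test of edgeR gave an adjusted p under 0.05. A count of 0 allows up to 3 counts, which was between 0.121 and 0.187 CPM in these libraries, a floor for counting error only. In bulk libraries, fewer cells of a type and less RNA per cell cannot be told apart. All 9 fibroblast markers listed were detected, and their summed level was between 27144 and 39414 CPM in control libraries and between 15349.6 and 22851 CPM in senescent ones. With DMSO, 7 of them were lower and 2 higher in senescent cells, where 36.0% of all genes were lower and 32.5% higher. DCN (decorin) went from 3042 ± 226 CPM in control to 7.73 ± 0.29 CPM in senescent cells, and VIM (vimentin) from 5035 ± 432 to 11681 ± 374 CPM. The epithelial markers KRT5, KRT14 and SFTPC were at 0 in all libraries. The 6 epithelial markers summed to between 0.846 and 3.58 CPM in control libraries and between 9.96 and 15.1 CPM in senescent ones, where most of it was CLDN4. The 5 endothelial markers summed to between 31.8 and 55.3 CPM in control and between 8.89 and 24.3 CPM in senescent libraries. This sum was mostly TEK in control cells. Of the 4 that were tested, 3 were higher in senescent cells with DMSO and TEK was lower, where 32.5% of all genes were higher and 36.0% lower. The 3 were PECAM1, CDH5 and VWF, each under 6 CPM on average. PECAM1 and CDH5 passed the filter through their senescent libraries alone, so their part in this count is no test. Replicate 3 of control DMSO stood apart from the other two of its group, with a chi-square of 104 and 52.3 per gene, beside 5.26 to 27.9 for the other pairs of replicates. Without it, member values moved by at most 0.09 on the log2 scale, and the 1 call that was lost was that of PLAT with DDD86481 in control cells.

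**Figure D1:**
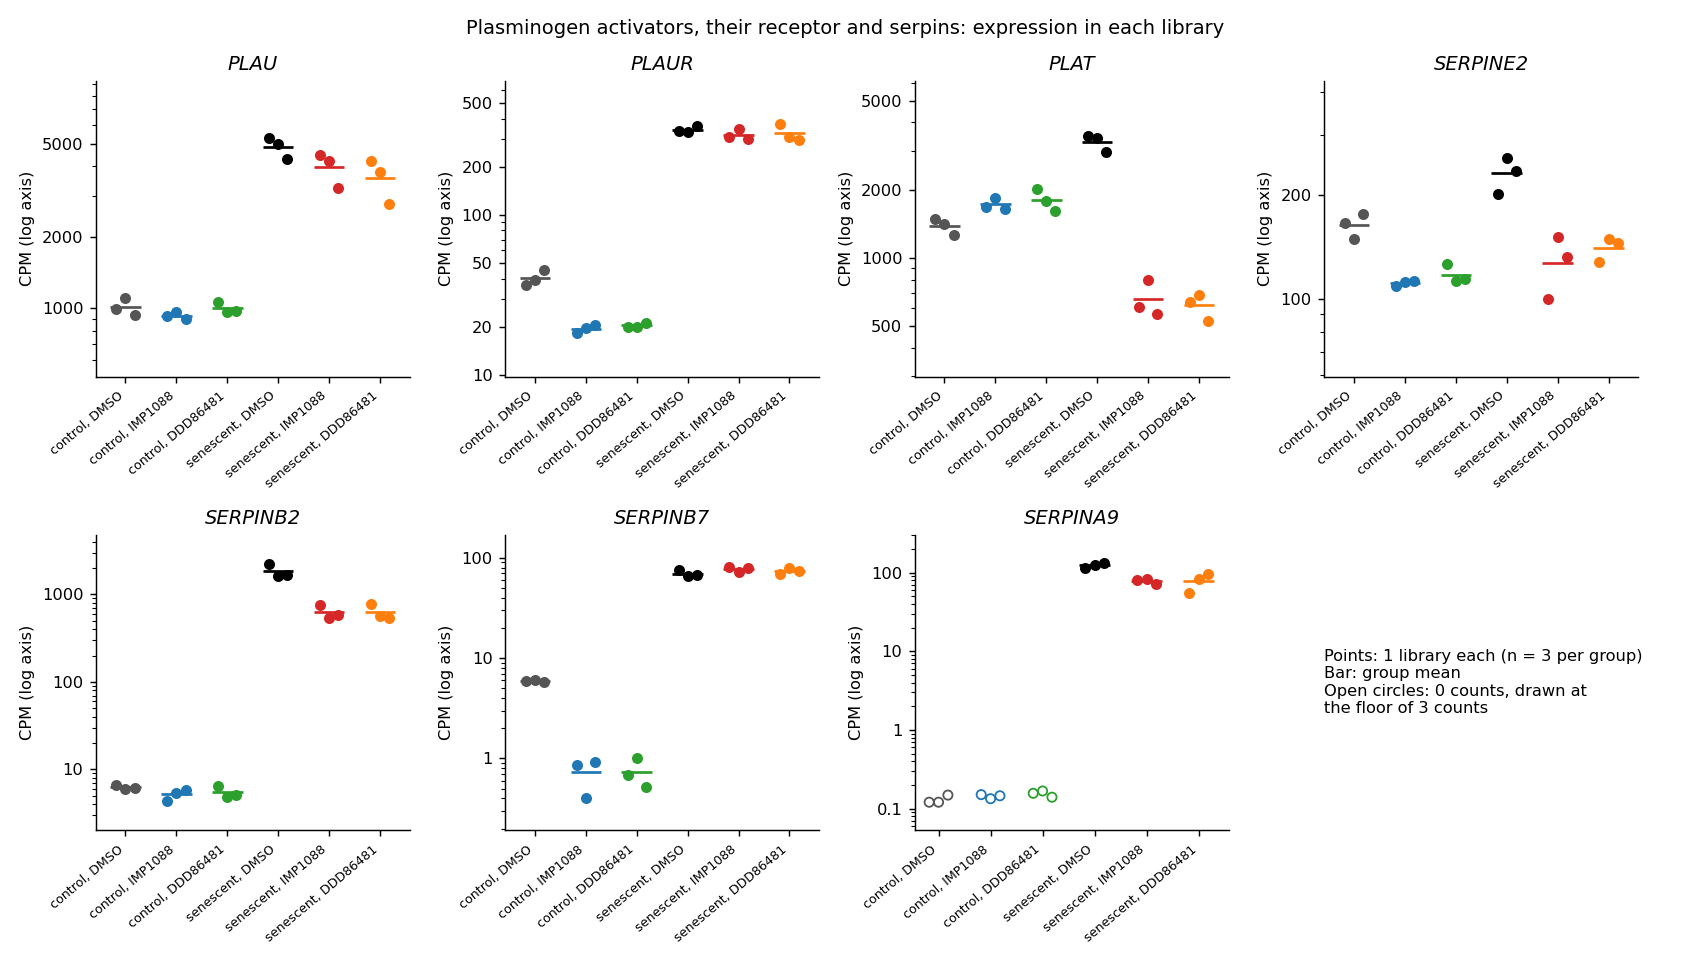
Expression of each member in each library, in CPM on a log axis, with 1 point per library, a bar at the group mean and the 6 groups along the x axis. Senescent DMSO libraries lie above control DMSO libraries in all 7 panels, and PLAT in senescent cells with either inhibitor (524 to 803 CPM) lies under every control library (1266 to 2021 CPM).

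Both activators were abundant and higher in senescent cells, but they parted under NMT inhibition. In senescent cells PLAU was 1.22-fold lower with IMP1088 and 1.36-fold lower with DDD86481, whereas PLAT fell to under its level in control cells. PLAU had 994, 1101 and 933 CPM in the control DMSO libraries and 5280.4, 4989 and 4298 CPM in the senescent DMSO libraries. The 2 groups were far apart, with a log2 fold change of 2.27 ± 0.14 (adjusted p = 1.79e-11, edgeR). With IMP1088, senescent cells had 4477, 4211 and 3238 CPM of PLAU, and with DDD86481 they had 4222, 3769.8 and 2756 CPM. The IMP1088 libraries overlapped those with DMSO, and the DDD86481 libraries lay just under them. The log2 fold change was -0.29 ± 0.14 with IMP1088 (adjusted p = 0.0947, edgeR) and -0.44 ± 0.14 with DDD86481 (adjusted p = 0.0138, edgeR). The DDD86481 call was lost without replicate 3 of the senescent DDD86481 libraries (-0.28, adjusted p = 0.0935, edgeR) and without replicate 1 of the senescent DMSO libraries (-0.37, adjusted p = 0.0651, edgeR). Control cells had 924, 965 and 893 CPM of PLAU with IMP1088 and 1065, 965 and 969 CPM with DDD86481, which overlapped the DMSO libraries. Neither difference passed the test (-0.12 ± 0.14, adjusted p = 0.522, and -0.015 ± 0.137, adjusted p = 0.949, edgeR).

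PLAT, at chr8:42032236-42065227 on the minus strand, turned its order between the states. It had 1485, 1415 and 1266 CPM in control and 3469.6, 3423 and 2969.8 CPM in senescent cells with DMSO, a rise of 1.24 ± 0.13 on the log2 scale (adjusted p = 4.69e-08, edgeR). With IMP1088 it had 609, 803 and 566 CPM in senescent cells, and with DDD86481 it had 637, 687 and 524 CPM. All 6 of these libraries were far under the senescent DMSO libraries and under every control library. The log2 fold change was -2.32 ± 0.135 with IMP1088 (4.98-fold lower, adjusted p = 1.62e-10, edgeR) and -2.42 ± 0.14 with DDD86481 (5.34-fold lower, adjusted p = 1.03e-10, edgeR). In control cells PLAT moved a little the other way, with 1689, 1847 and 1655 CPM under IMP1088 and 2021, 1784 and 1609.6 CPM under DDD86481. Neither set overlapped the DMSO libraries. The difference was 0.32 ± 0.13 with IMP1088 (adjusted p = 0.0637, edgeR) and passed the test with DDD86481 (0.38 ± 0.13, adjusted p = 0.0269, edgeR). The control IMP1088 and control DMSO libraries were taken as paired by their replicate numbers. With a block of replicate number over all 18 libraries the IMP1088 difference passed too (0.32, adjusted p = 0.017, edgeR). It also passed without replicate 1 of control DMSO (0.38, adjusted p = 0.0363, edgeR) and with no filter on low counts (0.31, adjusted p = 0.0298, edgeR). The DDD86481 call was lost when 1 library was left out, for replicate 1 or 2 of control DDD86481 and replicate 2 or 3 of control DMSO, with an adjusted p of up to 0.128 in edgeR, with upper quartile scaling (0.32, adjusted p = 0.0652, edgeR) and in the fit of only those groups (0.37, adjusted p = 0.0731, edgeR). The interaction term, which subtracts the difference made by the inhibitor in control cells from that in senescent cells, was -2.63 ± 0.185 for IMP1088 (adjusted p = 1.05e-08, edgeR) and -2.79 ± 0.19 for DDD86481 (adjusted p = 8.31e-09, edgeR). Under the inhibitors, senescent cells had less PLAT than control cells, with a log2 fold change of -1.39 ± 0.13 for IMP1088 (2.62-fold lower, adjusted p = 8.19e-09, edgeR) and -1.55 ± 0.13 for DDD86481 (2.93-fold lower, adjusted p = 1.67e-09, edgeR).

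**Figure D2:**
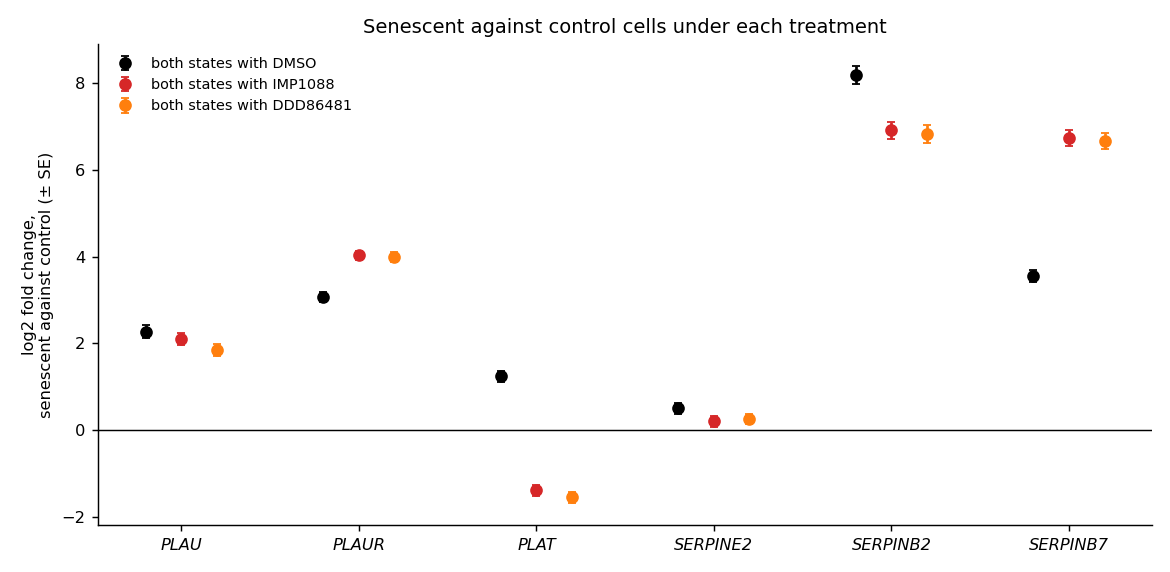
Log2 fold change of senescent against control cells (points, with bars of 1 SE) for 6 members, with both states under DMSO, IMP1088 or DDD86481. PLAT is above 0 with DMSO (1.24) and below 0 with IMP1088 (-1.39) and DDD86481 (-1.55), while the other 5 members are above 0 under each treatment. SERPINA9 is left out because it had no count in control cells.

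PLAUR, which encodes the receptor that holds urokinase at the cell surface, was higher in senescent cells and fell with the inhibitors in control cells. It had 36.4, 39.5 and 45.3 CPM in control and 333, 331 and 357 CPM in senescent cells with DMSO, and was 3.07 ± 0.11 higher on the log2 scale (8.43-fold higher, adjusted p = 9.76e-16, edgeR). In control cells it had 18.2, 19.6 and 20.4 CPM with IMP1088 and 20, 20.1 and 21 CPM with DDD86481. These libraries lay under all 3 control DMSO libraries, and the log2 fold change was -1.06 ± 0.10 with IMP1088 (adjusted p = 2.48e-07, edgeR) and -0.99 ± 0.10 with DDD86481 (adjusted p = 6.9e-07, edgeR). Senescent cells had 307, 345 and 299 CPM with IMP1088 and 369, 307 and 293 CPM with DDD86481. Both sets overlapped the senescent DMSO libraries, at -0.10 ± 0.10 (adjusted p = 0.41, edgeR) and -0.076 ± 0.097 (adjusted p = 0.556, edgeR). The interaction term was 0.96 ± 0.14 for IMP1088 (adjusted p = 7.56e-05, edgeR) and 0.91 ± 0.14 for DDD86481 (adjusted p = 0.00012, edgeR). The difference between the states was accordingly larger under the inhibitors, 16.4-fold with IMP1088 and 15.9-fold with DDD86481.

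SERPINE2 encodes protease nexin-1, a secreted serpin that inhibits thrombin, urokinase and tPA. It was the member with the smallest difference between the states, and it fell with the inhibitors in both. Control DMSO libraries had 166, 149.5 and 177 CPM and senescent DMSO libraries had 202, 257 and 235 CPM, which is 0.50 ± 0.12 higher on the log2 scale (adjusted p = 0.00121, edgeR), between groups that did not overlap. Senescent cells had 99.5, 151 and 132 CPM with IMP1088 and 128, 149.7 and 145 CPM with DDD86481, all under the senescent DMSO libraries. The log2 fold changes were -0.86 ± 0.12 (adjusted p = 9.96e-06, edgeR) and -0.72 ± 0.12 (adjusted p = 8.35e-05, edgeR). Control cells had 109, 112 and 113 CPM with IMP1088 and 126, 113 and 114 CPM with DDD86481, again all under DMSO, with differences of -0.56 ± 0.12 (adjusted p = 0.00138, edgeR) and -0.48 ± 0.12 (adjusted p = 0.00433, edgeR). The interaction did not pass the test for either compound (-0.30 ± 0.17, adjusted p = 0.209, and -0.23 ± 0.17, adjusted p = 0.318, edgeR). Between senescent and control cells under an inhibitor the difference was 0.20 ± 0.12 with IMP1088 (adjusted p = 0.148, edgeR) and 0.26 ± 0.12 with DDD86481 (adjusted p = 0.0582, edgeR). The first passed without replicate 1 of senescent IMP1088 (0.35, adjusted p = 0.00988, edgeR). The second passed without replicate 1 of control DDD86481 or of senescent DDD86481, the latter with 0.33 (adjusted p = 0.0369, edgeR), and also with DESeq2 size factors (0.29, adjusted p = 0.0359, edgeR), with DESeq2 itself, with no filter on low counts and in the fit of only those groups.

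SERPINB2 encodes PAI-2, an inhibitor of urokinase and tPA that stays largely inside the cell. It had the largest fold change between the states among the members that were counted in both. Control cells with DMSO had 6.65, 5.99 and 6.17 CPM, and senescent cells with DMSO had 2204, 1638 and 1652 CPM. The log2 fold change was 8.19 ± 0.21 (292-fold higher, adjusted p = 1.12e-17, edgeR). In senescent cells it fell to 762, 532 and 587 CPM with IMP1088 and to 773, 562 and 542 CPM with DDD86481. All 6 libraries lay under the senescent DMSO libraries and far over every control library. The log2 fold change was -1.55 ± 0.15 with IMP1088 (2.92-fold lower, adjusted p = 1.15e-07, edgeR) and -1.55 ± 0.15 with DDD86481 (2.93-fold lower, adjusted p = 1.3e-07, edgeR). Control cells had 4.41, 5.34 and 5.83 CPM with IMP1088 and 6.47, 4.87 and 5.09 CPM with DDD86481. These differences from DMSO did not pass the test (-0.27 ± 0.20, adjusted p = 0.301, and -0.20 ± 0.20, adjusted p = 0.458, edgeR). The interaction term passed for both compounds, at -1.28 ± 0.25 for IMP1088 (adjusted p = 0.000907, edgeR) and -1.35 ± 0.25 for DDD86481 (adjusted p = 0.000542, edgeR). Senescent cells still had 120-fold more than control cells with IMP1088 and 114-fold more with DDD86481.

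SERPINB7, also called megsin, is the neighbour of SERPINB2 in the cluster and was first described in mesangial cells of the kidney. Its pattern under NMTi differed from that of SERPINB2, with the fall in control cells for which it was picked. In senescent cells it had small rises that did not pass the test. Control cells had 5.88, 6.12 and 5.72 CPM with DMSO, 0.853, 0.401 and 0.923 CPM with IMP1088 and 0.678, 1.01 and 0.514 CPM with DDD86481. The log2 fold changes of this description were -3.03 ± 0.20 and -3.02 ± 0.205, and they rest on between 9 and 19 counts in a library with an inhibitor. Senescent cells had 75.1, 66.2 and 67.6 CPM with DMSO, 81.5, 71.5 and 78.4 CPM with IMP1088 and 68.8, 78.8 and 74.3 CPM with DDD86481. The 9 senescent libraries overlapped, and the differences were 0.15 ± 0.12 with IMP1088 (adjusted p = 0.328, edgeR) and 0.088 ± 0.118 with DDD86481 (adjusted p = 0.578, edgeR). In the fit of only those groups the IMP1088 difference passed (0.18, adjusted p = 0.042, edgeR). The difference between senescent and control cells was 3.56 ± 0.14 with DMSO, 6.74 ± 0.18 with IMP1088 and 6.67 ± 0.18 with DDD86481, given with no test.

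SERPINA9, or centerin, is known from germinal centre B cells. In these fibroblasts it had 0 counts in all 9 control libraries. Senescent cells had 113, 123 and 133 CPM with DMSO, 80, 83 and 72.1 CPM with IMP1088 and 54.6, 82.5 and 96.9 CPM with DDD86481. The inhibitor libraries all lay under those with DMSO, with log2 fold changes of -0.65 ± 0.16 and -0.66 ± 0.16, given with no test. Against the floor of 3 counts per control library, the level in senescent cells was at least 944-fold higher with DMSO, at least 547-fold higher with IMP1088 and at least 503-fold higher with DDD86481. No test is given for these differences, since the gene passed the filter through its senescent libraries alone. The 6 leukocyte markers summed to between 15.2 and 24.4 CPM in control and between 91.9 and 165 CPM in senescent libraries. This was almost all CD68, a lysosomal glycoprotein, at 17.5 ± 2.4 CPM in control and 132 ± 16 CPM in senescent cells with DMSO. Of the exonic bases of CD68, 81.6% overlap a non-coding gene on the same strand, so its counts are uncertain. PTPRC, the pan-leukocyte surface marker, was at 0.057 ± 0.061 and 0.181 ± 0.166 CPM in those groups, and CD3E was at 0 in all libraries. CSF1R rose from 0.067 ± 0.084 CPM in control DMSO to 0.934 ± 0.108 CPM in senescent DMSO libraries, and had 6 counts or fewer in every control library. Among the 3 leukocyte markers that passed the filter, edgeR called a rise with senescence under DMSO for 2 and a fall for 0. Over all genes these shares were 32.5% and 36.0%.

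**Figure D3:**
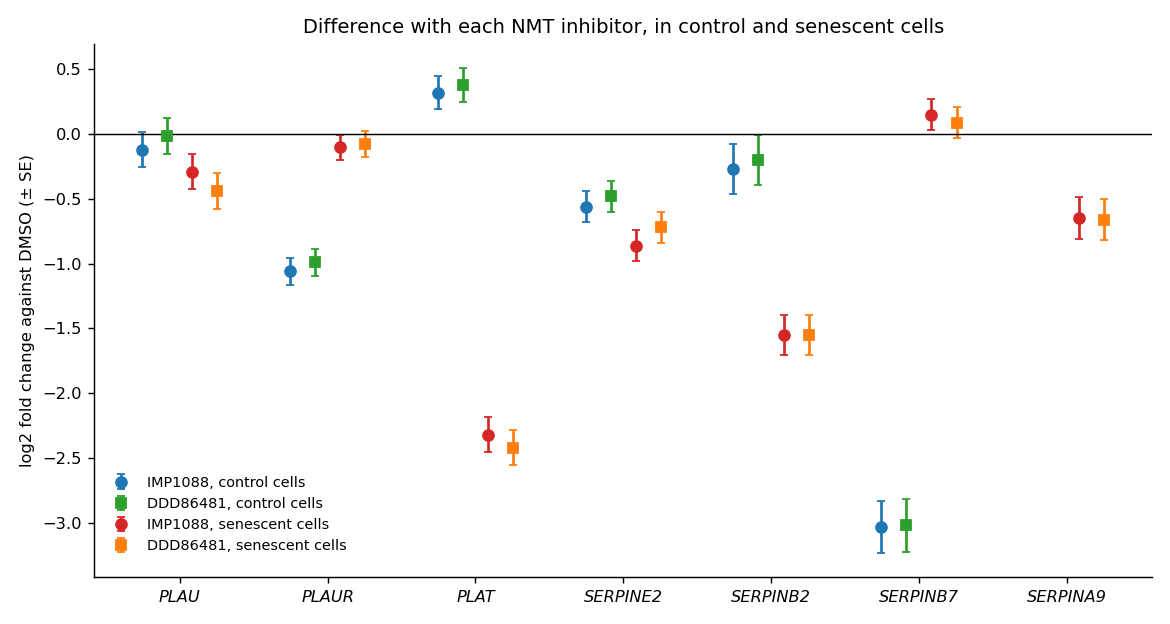
Log2 fold change against DMSO (points, with bars of 1 SE) of the 7 members with IMP1088 (circles) or DDD86481 (squares), in control cells (blue and green) and in senescent cells (red and orange). PLAT and SERPINB2 are lowest in senescent cells (-2.32 and -1.55 with IMP1088) and PLAUR and SERPINB7 in control cells (-1.06 and -3.03 with IMP1088), and SERPINA9 has no value in control cells, where it had no count.

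Read as counts over the comparisons, the members that could be tested were set beside all 14341 genes. Between senescent and control cells with DMSO, 5 of 5 were higher, where 32.5% of all genes were higher and 36.0% lower. In senescent cells, IMP1088 lowered 3 of 6 members and raised 0, where 23.9% of all genes were lower and 20.6% higher. DDD86481 lowered 4 of 6 and raised 0 in those cells, against 23.1% lower and 20.1% higher over all genes. In control cells, IMP1088 lowered 2 of 5 and raised 0, where 17.4% of genes were lower and 16.3% higher. DDD86481 lowered 2 of 5 there and raised 1, against 18.7% lower and 17.8% higher. The interaction term passed for 3 of 5 members with each compound, where it passed for 26.2% of all genes with IMP1088 and 30.3% with DDD86481. Under IMP1088, senescent cells had more than control cells of 3 of 5 members and less of 1, where 36.2% of genes were higher and 37.9% lower. Under DDD86481 the counts were again 3 and 1 of 5, where 36.1% were higher and 37.9% lower. The doses of the compounds differ, and their comparisons share the DMSO libraries, so the 2 sets of values stand side by side without a test between them.

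Per length the order of the members changed with the state. The length was that of all annotated exons of a gene merged, which can exceed the transcripts counted, and the order between genes depends on it. In CPM with DMSO, PLAT (1389) stood over PLAU (1009.7) in control cells. In senescent cells PLAT (3288) stood over SERPINB2 (1832), and SERPINE2 (232) over SERPINB7 (69.6). In control cells with DMSO, PLAU was highest at 342 ± 29 CPM per kb of exon, followed by PLAT at 179 ± 14.5, SERPINE2 at 18.3 ± 1.6 and PLAUR at 9.07 ± 1.02. SERPINB2 (2.29 ± 0.12 CPM per kb) and SERPINB7 (2.24 ± 0.075 CPM per kb) did not differ beyond their spread. In senescent cells with DMSO, PLAU had 1647 ± 171 CPM per kb, and SERPINB2 came next at 668 ± 118, over PLAT at 423 ± 35.5. PLAUR followed at 76.4 ± 3.2 CPM per kb and SERPINA9 at 48.1 ± 3.8. SERPINB7 (26.4 ± 1.8 CPM per kb) and SERPINE2 (25.9 ± 3.1 CPM per kb) were last and did not differ beyond their spread. Among 13820 tested genes with a length, PLAU had rank 14 by level per kb in senescent cells with DMSO, and SERPINB2 moved from rank 8681 in control to rank 39 in senescent cells. PLAT went from rank 64 in senescent cells with DMSO to rank 489 with IMP1088 and rank 539 with DDD86481. Over the 18 libraries, which fall into the same 6 groups for every gene, log2 levels of each member were correlated with those of 10626 other genes. PLAT had few genes like it, with 6 at an r of 0.95 or more, led by RIPOR3 (r = 0.9829), CCND2 (r = 0.9613), which encodes cyclin D2, and RGL1 (r = 0.9582). SERPINE2 had 0 genes at that level, and the nearest were UACA (r = 0.9493), KRTAP1-5 (r = 0.9355) and LRRFIP1 (r = 0.9340). The other members follow the difference between the states and had from 387 to 836 genes at that level. The nearest to PLAU were DUSP6 (r = 0.9924), a phosphatase of ERK, with THBD (r = 0.9920) and COL6A2 (r = 0.9915). PLAUR was nearest to TM4SF1 (r = 0.9976), TM6SF1 (r = 0.9952) and PLOD2 (r = 0.9950). SERPINB2 was nearest to NRIP3 (r = 0.9973), the protease MMP7 (r = 0.9973) and RGS5 (r = 0.9970). SERPINB7 was nearest to the epithelial marker CLDN4 (r = 0.9920), GALNT6 (r = 0.9904) and NT5E (r = 0.9898). SERPINA9 was nearest to SERPINB4 (r = 0.9995), the cytokine IL1B (r = 0.9979) and DCSTAMP (r = 0.9977). It had no count in control cells, so these r values largely repeat the step between the states for which it was picked.

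The cluster on chromosome 18 that holds SERPINB7 and SERPINB2 was followed gene by gene. SERPINB5, SERPINB12 and SERPINB13 had 3 counts or fewer in every library. SERPINB4, an inhibitor of chymotrypsin-like proteases, had 1 count in the control DMSO libraries together and 77.4 ± 2.9 CPM in senescent cells with DMSO, at least 594-fold higher against the floor. SERPINB3 had 0 counts in the control and 2.05 ± 0.18 CPM in the senescent DMSO libraries, at least 15.7-fold higher. The 2 genes are near-identical copies, so reads may be split between them and both values are uncertain, and 36.3% of the exonic bases of SERPINB3 overlap SERPINB11. SERPINB8, at the other end of the cluster, had 18.8 ± 2.0 CPM in control and 85.9 ± 3.4 CPM in senescent cells with DMSO (2.19 ± 0.12 on the log2 scale, adjusted p = 2.36e-12, edgeR). Between them SERPINB10 stayed at or under 0.142 CPM on average in each group. Of the 11 clade B serpins other than the members, 6 passed the filter. With DMSO senescent cells had more of 3 of them and less of 2, where 32.5% of all genes were higher and 36.0% lower. SERPINB3 and SERPINB4 passed the filter through their senescent libraries alone, so their part in this count is no test. Those with less, SERPINB1 and SERPINB9, lie on chromosome 6.

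**Figure D4:**
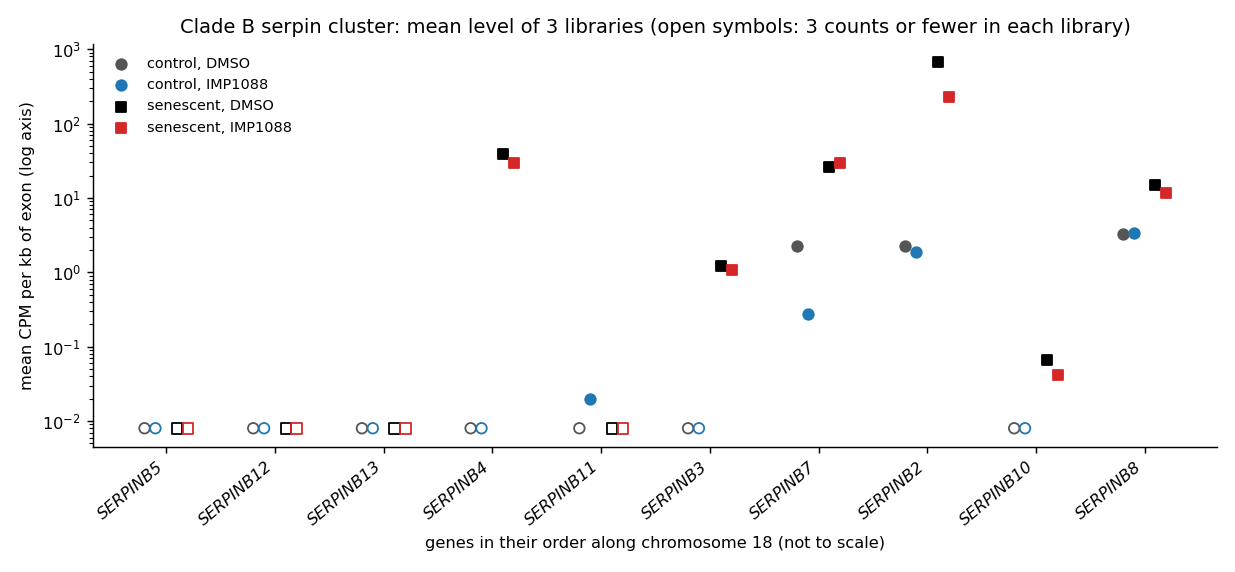
Mean level in CPM per kb of exon (log axis, 3 libraries a group) of the clade B serpins in their order along chromosome 18, in control cells (circles) and senescent cells (squares) with DMSO or IMP1088. Open symbols mark groups with 3 counts or fewer in each library. SERPINB2 rises from 2.29 to 668 CPM per kb between the DMSO groups and SERPINB7 from 2.24 to 26.4, while SERPINB5, SERPINB12 and SERPINB13 are open in all groups shown.

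Other genes of plasmin formation were described from a list of 16, of which 11 passed the filter. Plasminogen itself (PLG) had 3 counts or fewer in every library, as did SERPINA5 and CPB2. With DMSO, 8 of the 11 were higher in senescent cells and 2 lower, where 32.5% of all genes were higher and 36.0% lower. VTN had 0.514 ± 0.159 CPM in the control and 0 counts in the senescent DMSO libraries. It passed the filter through its control libraries alone, so its part in this count is no test. The median log2 fold change was 0.59, beside -0.051 over all genes.

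ANXA2 and S100A10 encode the subunits of a surface complex that binds plasminogen and tPA. ANXA2 had 1233 ± 225 CPM in control and 2278 ± 196 CPM in senescent cells with DMSO, and S100A10 had 154 ± 41 and 226 ± 4.69 CPM. In control cells ANXA2 was at 387 ± 24 CPM with IMP1088 and 369.6 ± 22.8 CPM with DDD86481, and S100A10 was at 40.6 ± 4.9 and 38.9 ± 1.1 CPM. The log2 fold changes in control cells were -1.67 ± 0.12 and -1.74 ± 0.12 for ANXA2 and -1.92 ± 0.16 and -1.98 ± 0.16 for S100A10, with adjusted p-values in edgeR from 2.39e-09 to 3.38e-08. In senescent cells the log2 fold changes were -0.61 ± 0.11 and -0.60 ± 0.11 for ANXA2 and -0.72 ± 0.16 and -0.87 ± 0.16 for S100A10, and all 4 passed the test, with adjusted p-values in edgeR from 0.000158 to 0.000882. PLGRKT, another plasminogen receptor, was higher in senescent cells with DMSO (1.14 ± 0.17, adjusted p = 5.16e-06, edgeR). IGF2R, which binds both plasminogen and the urokinase receptor, was also higher there (1.23 ± 0.22, adjusted p = 6.37e-05, edgeR), and rose with IMP1088 in control cells (1.24 ± 0.22, adjusted p = 0.000268, edgeR). A2M, a broad protease trap, was lower in senescent cells with DMSO (-4.19 ± 0.19, adjusted p = 7.68e-14, edgeR). Over the list, IMP1088 lowered 6 of 11 and raised 0 in senescent cells, where it lowered 23.9% of all genes and raised 20.6%. DDD86481 lowered 4 and raised 0 there, against 23.1% and 20.1% of all genes. In control cells each compound lowered 5 and raised 3, where 17.4% of all genes were lower and 16.3% higher with IMP1088 and 18.7% and 17.8% with DDD86481. Without replicate 3 of control DMSO, the difference between the states with DMSO was 0.92 for IGF2R and 1.38 for PLGRKT, and IGF2R with IMP1088 in control cells was at 0.93, all still called. Some calls in senescent cells, which are part of the counts above, were lost when 1 library was left out. For A2M with IMP1088 this held for replicate 1 or 2 of senescent DMSO and replicate 1 or 3 of senescent IMP1088. For A2M with DDD86481 it held for replicate 1 or 2 of senescent DMSO and each replicate of senescent DDD86481. For PLGRKT with IMP1088 it held for replicate 2 of senescent DMSO and replicate 3 of senescent IMP1088.

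Serpins of other clades were divided. Of 20 listed, 11 had 3 counts or fewer in every library and 8 passed the filter. With DMSO, 4 of the 8 were higher and 4 lower in senescent cells, where 32.5% of all genes were higher and 36.0% lower. SERPINA1, the inhibitor of neutrophil elastase, had 4 counts in the control DMSO libraries together and 12.5 ± 0.9 CPM in the senescent ones, at least 95.8-fold higher. SERPIND1 had 6 counts in the control DMSO libraries together and 4.87 ± 0.74 CPM in the senescent ones, at least 37.4-fold higher. Both genes passed the filter through their senescent libraries alone, so their part in that count is no test. The lower ones included SERPING1, the inhibitor of complement C1 (67.9 ± 4.8 and 2.18 ± 0.42 CPM, -4.96 ± 0.13, adjusted p = 1.54e-17, edgeR). SERPINF1, or PEDF, was at 376 ± 37 CPM in control and 23 ± 1.87 CPM in senescent cells (-4.03 ± 0.13, adjusted p = 2.55e-16, edgeR). SERPINH1, the collagen chaperone HSP47, was at 883 ± 50 and 424 ± 7.19 CPM (-1.06 ± 0.11, adjusted p = 3.33e-08, edgeR). AGT, the serpin from which angiotensin is cut, was at 24 ± 0.357 CPM in control and 0.505 ± 0.208 CPM in senescent cells with DMSO (-5.58 ± 0.22, adjusted p = 9.58e-15, edgeR). It was the 1 listed gene of these clades that rose with the inhibitors, by 1.81 ± 0.13 with IMP1088 (adjusted p = 6.88e-09, edgeR) and 1.68 ± 0.13 with DDD86481 (adjusted p = 1.59e-08, edgeR) on the log2 scale in control cells. In senescent cells each compound lowered 4 of the 8 and raised 1, beside the shares of all genes given for these comparisons (23.9% and 23.1% lower, 20.6% and 20.1% higher). The call for SERPING1 with IMP1088 was lost with DESeq2, with no filter on low counts and in the fit of only those groups. It was also lost without replicate 2 or 3 of senescent DMSO or any 1 replicate of senescent IMP1088. The call for SERPINA1 with IMP1088 was lost without replicate 3 of senescent IMP1088.

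Most listed genes of clotting at the cell surface fell in senescent cells with the NMT inhibitors. The gene TFPI2 did not pass the test there (-0.39 ± 0.19, adjusted p = 0.105, with IMP1088 and -0.37 ± 0.19, adjusted p = 0.126, with DDD86481, edgeR). Of 10 listed genes 9 passed the filter, and each compound lowered 7 of them and raised 0 in senescent cells (23.9% and 23.1% of all genes were lower), with medians of -1.02 and -1.08 on the log2 scale beside -0.043 and -0.037 over all genes. In control cells each lowered 2 and raised 2, where 17.4% of all genes were lower and 16.3% higher with IMP1088. With DDD86481 these shares were 18.7% and 17.8%. F3, tissue factor, had 235 ± 34 CPM in senescent cells with DMSO, 80.2 ± 13.2 CPM with IMP1088 and 92.1 ± 17.3 CPM with DDD86481 (-1.55 ± 0.19, adjusted p = 1.7e-06, and -1.35 ± 0.19, adjusted p = 8.71e-06, edgeR). PROCR, the receptor of protein C, had 68.8 ± 7.1, 34 ± 2.5 and 31.6 ± 5.4 CPM in the same groups (-1.02 ± 0.12, adjusted p = 1.33e-06, and -1.12 ± 0.12, adjusted p = 4.13e-07, edgeR). The thrombin receptor F2R had 588 ± 35, 251 ± 8.54 and 253 ± 22 CPM (-1.23 ± 0.086, adjusted p = 1.49e-09, and -1.21 ± 0.086, adjusted p = 2.06e-09, edgeR). F2RL1, a receptor cut by trypsin-like proteases, was higher in senescent cells with DMSO (20.1 ± 0.7 and 289 ± 20 CPM, 3.85 ± 0.11, adjusted p = 6.7e-17, edgeR), and so was TFPI2, a secreted inhibitor of plasmin (21.6 ± 6.2 and 1221 ± 161 CPM, 5.82 ± 0.24, adjusted p = 1.78e-14, edgeR). THBD, thrombomodulin, had 0.572 ± 0.029 CPM in control and 47.5 ± 4.05 CPM in senescent cells (6.36 ± 0.23, adjusted p = 2.37e-15, edgeR). Exons of F2RL1 and PROCR overlap other genes by 10.4% and 12.8% of their bases.

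**Figure D5:**
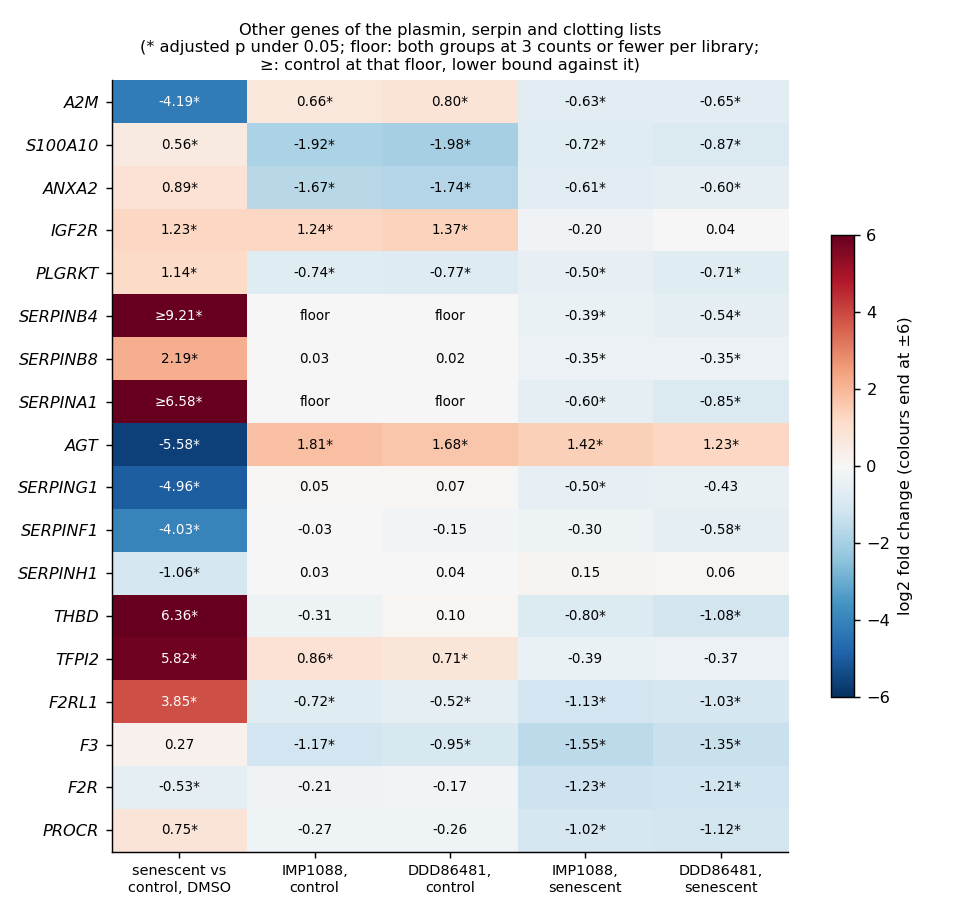
Log2 fold changes of the other genes named by rule from the plasmin, serpin and clotting lists (rows) in 5 comparisons against DMSO or between the states (columns), red for higher and blue for lower, with an asterisk where edgeR's adjusted p was under 0.05. The word floor marks pairs with 3 counts or fewer in each library, and SERPINB4 and SERPINA1 show lower bounds in the first column. Both passed the filter through their senescent libraries alone, so their asterisks in that column are no support. S100A10, ANXA2, PLGRKT, F3 and F2RL1 are lower with an asterisk in all 4 inhibitor columns.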

How the data were processed

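Poly(A) RNA of 18 libraries of IMR90 ER:RAS cells was sequenced, and the authors deposited a single table that holds raw counts of reads for each gene symbol. The study's methods name TopHat with hg19 and Ensembl annotation, whereas the submitters' processing notes name DRAGEN, STAR 2.7.8a, hg38 and DESeq2 1.32.0; which of these made the table was not given in the sources used here. Library totals ran from 16143716 to 23189950 counts.

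Groups came from the labels. From the deposited counts, filterByExpr in edgeR 4.0.16 (R 4.3.3) kept 14341 genes with 99.962% of counts. TMM scaling and the quasi-likelihood test were applied in 1 fit of 18 libraries over 6 groups, with Benjamini-Hochberg adjustment per comparison and a threshold of 0.05. Standard errors came from the F statistic, and log2 CPM for correlations used a prior count of 2. The fit was tested on simulated data. DESeq2 1.42.0 was an alternative, beside other scalings, no filter, a replicate block, only the groups compared and leaving out each library. Lengths, positions and overlaps came from GENCODE v44 on GRCh37, and promoters from RefSeq. Lengths were found for 96.4% of tested genes.

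The members and gene lists were chosen with earlier results of these data known. All members were named. A gene of the lists is not reported here and was left out of their counts. From the lists, genes were named with a mean of at least 10 CPM in a group and a 2-fold called change in at least 1 of the 5 comparisons against DMSO or between states with DMSO, at most 8 a list, and SERPINB3, SERPINB1, SERPINB9, SERPINB10, PLG and other genes at the floor were named to complete a count. The 3 genes most like each member had a mean of at least 5 CPM. To check whether replicate numbers pair libraries, deviations from group means were correlated. Same-numbered control DMSO and control IMP1088 libraries had r = 0.556, 0.178 and 0.339 and were taken as paired, by these correlations alone. In each other pair of groups compared at least 1 r was under 0.1. Replicates differed by more than sampling noise (chi-square of 5.26 to 104 per gene).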

Additional observations from a re-analysis of the deposited data

Results flagged for a closer look

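For 3 members the effect of the inhibitors differed between senescent and control cells by the interaction term (senescent minus control, log2 scale). PLAUR had 0.96 with IMP1088 (adjusted p = 7.56e-05, edgeR) and 0.91 with DDD86481 (adjusted p = 0.00012, edgeR), and fell in control cells. PLAT had -2.63 (adjusted p = 1.05e-08, edgeR) and -2.79 (adjusted p = 8.31e-09, edgeR), and fell in senescent cells. SERPINB2 had -1.28 (adjusted p = 0.000907, edgeR) and -1.35 (adjusted p = 0.000542, edgeR), and fell in senescent cells. Single values that stand apart were not looked for within groups, since that rule needs 4 libraries or more.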

How the results depend on the processing

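Over 59 values of the members and 12 or more alternatives each, 738 of 780 refitted values kept their direction and their side of the threshold, or moved by less than 1 SE where no test was given. The 3 that turned were PLAU with DDD86481 in control cells, at -0.015 in the report and between -0.068 and 0.059 when each library was left out, which passed the threshold in none of them. The numbers of genes called moved by more than 1.5 times only for the control cells when the fit held only the groups compared, from 4829 to 2677 with IMP1088 and from 5242 to 2820 with DDD86481; the cause was not tested. Upper quartile scaling moved the median log2 fold change of all genes between the states with DMSO from -0.051 to -0.205, and no member turned under it. The replicate block was fitted over all 18 libraries, so it paired control IMP1088 with control DMSO and also groups that share only numbers. With it, the number of genes called between control IMP1088 and control DMSO was 5003. The block also took PLAU in senescent cells with IMP1088 past the threshold (-0.29, adjusted p = 0.0276, edgeR), as it did the interaction of PLAU with DDD86481 (-0.44, adjusted p = 0.0318, edgeR), although those groups share only numbers, and the interaction also passed without replicate 1 of senescent DDD86481 (-0.56, adjusted p = 0.0399, edgeR) and with no filter on low counts (-0.44, adjusted p = 0.0393, edgeR); it changed no other call of a member beyond PLAT in control cells. PLAU with IMP1088 in senescent cells also passed with no filter on low counts (-0.30, adjusted p = 0.0359, edgeR) and in the fit of only the groups compared (-0.25, adjusted p = 0.0245, edgeR). In control libraries with an inhibitor, SERPINB7 rests on 9 to 19 counts, which limits the precision of its fold changes there.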
